A study of Mus musculus with 18 samples.

Results

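The genes examined are 10 transcription factors that act in the terminal maturation of natural killer (NK) cells: Tbx21, Eomes, Zeb2, Prdm1, Id2, Irf8, Nfil3, Ikzf3, Tox and Ets1. They were taken by name from 19938 genes measured on the array. Each of the 10 had exactly 1 probe set that carries its symbol alone, so no choice between probe sets was needed. The 18 arrays measured RNA of NK cells sorted from the spleen of Runx3 -/- mice (KO) and Runx3 +/+ mice (WT) of the ICR strain, 6 weeks old and labelled as male or female. Runx3 is a Runt-family transcription factor. Every mouse, of either genotype, had received IL15/Ra, a complex in which interleukin-15 is bound to its own receptor alpha chain, in 2 injections given 2 days apart, so all values are of cytokine-activated cells and no uninjected group was analysed here. NK cells were enriched by negative selection, and those positive for NKp46 were sorted by CD27 and CD11b into an immature subset with CD27 alone (called CD27), a subset with both markers (DP) and a mature subset with CD11b alone (CD11b). The 2 genotypes and 3 subsets gave 6 groups of 3 arrays. The allele is labelled as a knockout of the whole animal, so effects within NK cells and effects from other tissues cannot be told apart. The labels do not say how many mice made up a sample or whether arrays with the same number share mice, so the p-values rest on differences between arrays that may be partly technical.

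NK cells leave the immature CD27 stage under a small network of transcription factors. The T-box factors T-bet (Tbx21) and Eomes are the defining regulators of the lineage, and T-bet drives the late steps partly through Zeb2, a zinc finger repressor. Blimp-1 (Prdm1), Irf8 and Aiolos (Ikzf3) act in mature cells. Nfil3, Id2, Tox and Ets1 are best known for early commitment to the NK and innate lymphoid lineages.

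The arrays followed their labels in most respects. Log2 values are RMA levels, comparable for 1 probe set between arrays but not between probe sets. The mean of 6 NK cell markers lay between 12.74 and 13.15 on all 18 arrays. Runx3 itself was between 10.73 and 11.14 on KO arrays and between 11.39 and 11.49 on WT arrays of CD27 cells, and KO arrays lay below WT arrays in the other subsets too. It is not known here whether the Runx3 probe set falls inside the removed stretch of the gene, so the drop checks the labels weakly. The sex-linked gene Xist was low in KO replicates 1 and 2 (5.13 to 5.62) and high in KO replicate 3 (12.64 or more), against low values in WT replicate 1 (5.19 to 5.69) and high ones in WT replicates 2 and 3 (12.48 to 12.92), so by this gene sex was not balanced between genotypes. The Y-linked gene Eif2s3y read 6.83, 8.54 and 9.10 on the CD27, DP and CD11b arrays of KO replicate 3, between the 11.03 to 11.15 of KO replicates 1 and 2 and the 4.86 to 5.53 of WT replicate 3. WT replicate 2 lay between too, at 6.44 to 8.12. Arrays of KO mice also stood apart in markers of other cells and of division. The mean of 9 genes of dividing cells ran from 7.70 to 11.39 on KO arrays and from 6.81 to 7.31 on WT arrays, with the 3 arrays of KO replicate 3 at 10.96, 11.39 and 11.05. Among KO CD11b arrays, replicate 3 had a mean of 9.35 for markers of dendritic cells and MHC class II (9 of 9 measured), replicate 1 had 6.10 and replicate 2 had 5.42, against 5.31 to 5.42 on WT CD11b arrays. The same array of KO replicate 3 had a mean of 9.66 for neutrophil markers (6 of 6) and 6.92 for markers of monocytes and macrophages (7 of 8), where WT arrays lay at 4.97 to 5.12 and 4.96 to 5.06. The CD27 and DP arrays of KO replicate 3 had dendritic cell means of 6.22 and 6.58. WT arrays of these subsets lay at 5.44 to 5.56 and 5.30 to 5.36. On those CD27 and DP arrays Cd74 read 7.86 and 8.58, and H2-Aa, H2-Ab1, H2-Eb1 and Flt3 also lay above all WT arrays. Siglech did so on the DP array only. Xcr1, Clec9a and Zbtb46 did not exceed their highest WT values on either array. The neutrophil marker Mpo read 6.38 and 8.04 there. The other neutrophil markers, S100a8, S100a9, Ngp, Camp and Ltf, did not exceed their highest WT values. The mean of T cell markers (6 of 6) was lower on WT arrays of later stages. It was 7.95 to 8.37 in CD27, 6.92 to 7.04 in DP and 6.09 to 6.38 in CD11b cells. The markers did not move together, and the fall was largest in Cd3d, Cd3e and Cd3g. Cd3e read 10.49, 11.09 and 8.14 in WT CD27 cells and 5.55, 5.53 and 5.37 in WT CD11b cells. Cd4 stayed between 4.85 and 5.08 on all WT arrays. In KO the means of the list were 7.31 to 7.55, 6.72 to 6.99 and 6.34 to 7.11 in the same stages.

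**Figure D1:**
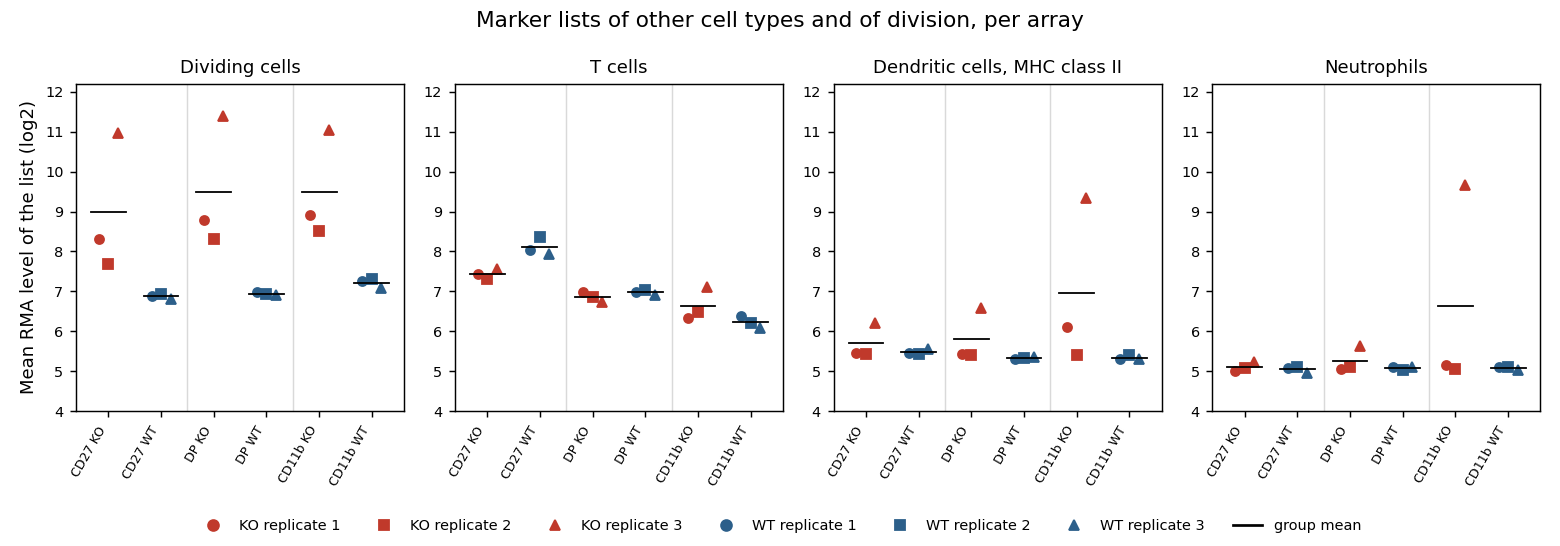
Mean RMA level (log2, y axis) of marker lists of dividing cells, T cells, dendritic cells and neutrophils on each array, with KO (red) left of WT (blue) in each subset and a black line at the group mean. The 3 arrays of KO replicate 3 (red triangles) are highest for dividing cells in each subset, and its CD11b array is highest for dendritic cell and neutrophil markers, at 9.35 and 9.66. Its CD27 and DP arrays lie above WT for dendritic cell markers too, at 6.22 and 6.58.

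Promoters are shown for Prdm1 and Irf8, the genes with the clearest differences between genotypes or subsets among those with a sequence. RefSeq promoter windows (build GRCm38.p6) were found for 7 of the 10 genes, with 11 windows between them. Ikzf3, Tox and Ets1 had none in the table. The letters TGTGGT and TGCGGT, the core bound by Runx proteins, were searched on both strands in the 250 bases before each start. They occurred in 1 of the 11 windows, against 18.6% of all 32851 promoters. The match, written in capitals, is TGCGGT on the opposite strand in the second listed promoter of Irf8, 197 bases before the start. The Prdm1 window (chr10:44458749-44458998, minus strand) and the 2 Irf8 windows (chr8:120736108-120736357 and chr8:120738389-120738638, plus strand) read as follows, 5′ to 3′.
Prdm1: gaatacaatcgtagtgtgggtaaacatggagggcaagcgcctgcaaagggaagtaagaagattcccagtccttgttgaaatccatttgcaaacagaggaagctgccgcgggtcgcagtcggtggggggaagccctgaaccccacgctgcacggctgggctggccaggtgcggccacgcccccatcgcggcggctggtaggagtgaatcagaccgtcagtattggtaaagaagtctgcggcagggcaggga
Irf8 first promoter: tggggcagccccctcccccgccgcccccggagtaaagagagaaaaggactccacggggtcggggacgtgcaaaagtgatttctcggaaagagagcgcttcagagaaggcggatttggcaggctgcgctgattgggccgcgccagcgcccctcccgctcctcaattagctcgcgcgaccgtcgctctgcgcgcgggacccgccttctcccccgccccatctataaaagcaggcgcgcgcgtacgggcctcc
Irf8 second promoter: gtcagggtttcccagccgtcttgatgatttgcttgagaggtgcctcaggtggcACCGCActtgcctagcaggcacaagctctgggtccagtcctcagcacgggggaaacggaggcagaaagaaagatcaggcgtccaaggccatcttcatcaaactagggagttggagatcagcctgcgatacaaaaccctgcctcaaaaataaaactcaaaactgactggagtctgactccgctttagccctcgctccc
A match is a run of letters and not a measured binding site, and the absence of these letters in the Prdm1 window says nothing of sites elsewhere.

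The first question was how these genes change as WT cells mature. Zeb2, Irf8, Prdm1 and Tbx21 rose between WT CD27 and WT CD11b cells and Tox fell, by limma on all 18 arrays with Benjamini-Hochberg adjustment over all 35399 probe sets and a threshold of 0.05. These are 4 genes higher and 1 lower of 10, with 5 not passing, where 2.88% of all probe sets passed as higher and 2.13% as lower. The median change of the 10 was 0.16 log2, beside 0.02 over all probe sets.

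Zeb2 had the widest range of the 10 genes over the 18 arrays, 2.44 log2. In WT cells it read 10.71, 9.96 and 9.92 in CD27, 11.19, 10.72 and 11.56 in DP, and 12.09, 12.09 and 12.35 in CD11b cells. The 3 stages did not overlap, although replicates spread widely in the earlier stages, and CD27 replicate 1 stood above its fellows. Zeb2 was 3.95-fold higher in CD11b than in CD27 cells (95% interval 2.89 to 5.39, limma adjusted p = 6.89e-05). Its steps were of similar size: 1.95-fold in DP over CD27 cells, which did not pass (adjusted p = 0.0636), and 2.03-fold in CD11b over DP cells, which passed barely (adjusted p = 0.0466).

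Irf8, an interferon regulatory factor that also acts in myeloid and B cells, rose as evenly and with less spread. WT arrays read 10.60, 10.50 and 10.71 in CD27, 11.36, 11.36 and 11.50 in DP, and 12.36, 12.44 and 12.22 in CD11b cells. The 3 stages did not overlap. Irf8 was 3.33-fold higher in CD11b than in CD27 cells (2.81 to 3.96, limma adjusted p = 1.18e-06). It passed at each step, 1.75-fold higher in DP than in CD27 cells (adjusted p = 0.00536) and 1.91-fold higher in CD11b than in DP cells (adjusted p = 0.00188). The WT arrays had dendritic cell marker means of 5.30 to 5.56 over the 3 subsets, and their part in the Irf8 values was not tested.

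Prdm1 rose mainly at the first step. WT arrays read 10.40, 9.75 and 10.07 in CD27, 10.98, 10.93 and 11.38 in DP, and 11.36, 11.30 and 11.70 in CD11b cells. CD27 arrays lay below all DP arrays, while DP replicate 3 overlapped the CD11b arrays. Prdm1 was 2.03-fold higher in DP than in CD27 cells (1.59 to 2.60, limma adjusted p = 0.0104) and 2.61-fold higher in CD11b than in CD27 cells (adjusted p = 0.000193). The second step was 1.28-fold and did not pass (adjusted p = 0.588). The call of the first step ended without CD27 replicate 2 (adjusted p = 0.0588) or DP replicate 3 (adjusted p = 0.0542), both of WT.

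Tbx21 moved least of those that rose. Its WT arrays read 12.43, 12.22 and 12.13 in CD27, 12.39, 12.30 and 12.44 in DP, and 12.77, 12.71 and 12.76 in CD11b cells. CD27 and DP arrays overlapped, and all CD11b arrays lay above both. The gene was 1.40-fold higher in CD11b than in CD27 cells (1.22 to 1.62, limma adjusted p = 0.00747), with 1.09-fold at the first step (adjusted p = 0.858) and 1.29-fold at the second (adjusted p = 0.133). The second step passed with the replicate block (adjusted p = 0.0401 random and 0.0293 fixed).

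Tox, an HMG-box factor needed for the development of NK and other innate lymphoid cells, went the other way. WT arrays read 9.42, 9.41 and 9.87 in CD27, 8.69, 8.46 and 9.24 in DP, and 8.56, 8.60 and 9.04 in CD11b cells. All DP and CD11b arrays lay below the CD27 arrays, and DP and CD11b overlapped; replicate 3 was the highest of each WT trio. Tox was 1.78-fold lower in CD11b than in CD27 cells (1.36 to 2.34, limma adjusted p = 0.0156), and 1.70-fold lower in DP than in CD27 cells without passing (adjusted p = 0.103). The T cell marker means given above were lower in these stages as well, and their part in the Tox values was not tested. The call ended without WT CD27 replicate 3, CD11b replicate 1 or CD11b replicate 2 (adjusted p = 0.0793, 0.0784 and 0.0720) and with only the compared groups fitted (0.0526), and the change lay between -0.99 and -0.68 log2 over all alternatives run.

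The remaining genes did not pass between WT stages by limma on all 18 arrays without blocks or weights. Ikzf3, an Ikaros-family zinc finger factor, averaged 12.41 ± 0.09 in CD27, 12.51 ± 0.11 in DP and 12.71 ± 0.09 in CD11b cells (log2, SD, n = 3 each). Its CD11b arrays lay above the CD27 arrays, 1.24-fold on average (limma adjusted p = 0.150). Same-numbered arrays of these stages paired, and Ikzf3 passed with the number as a random block (adjusted p = 0.0489) or a fixed one (0.0133), with array weights (0.016) and without KO replicate 3 (0.0312). Nfil3, a basic leucine zipper factor, averaged 8.88 ± 0.20, 8.80 ± 0.12 and 8.46 ± 0.14 in the same order, 1.34-fold lower in CD11b than in CD27 cells (adjusted p = 0.329). Eomes averaged 12.48 ± 0.05, 12.53 ± 0.10 and 12.49 ± 0.08, so its level in CD11b cells was within the spread of CD27 cells (1.01-fold, interval 0.89 to 1.14). Id2, which inhibits E-protein factors, and Ets1, the founding ETS factor, were flat too, with ranges of 0.34 and 0.44 log2 over all 18 arrays.

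**Figure D2:**
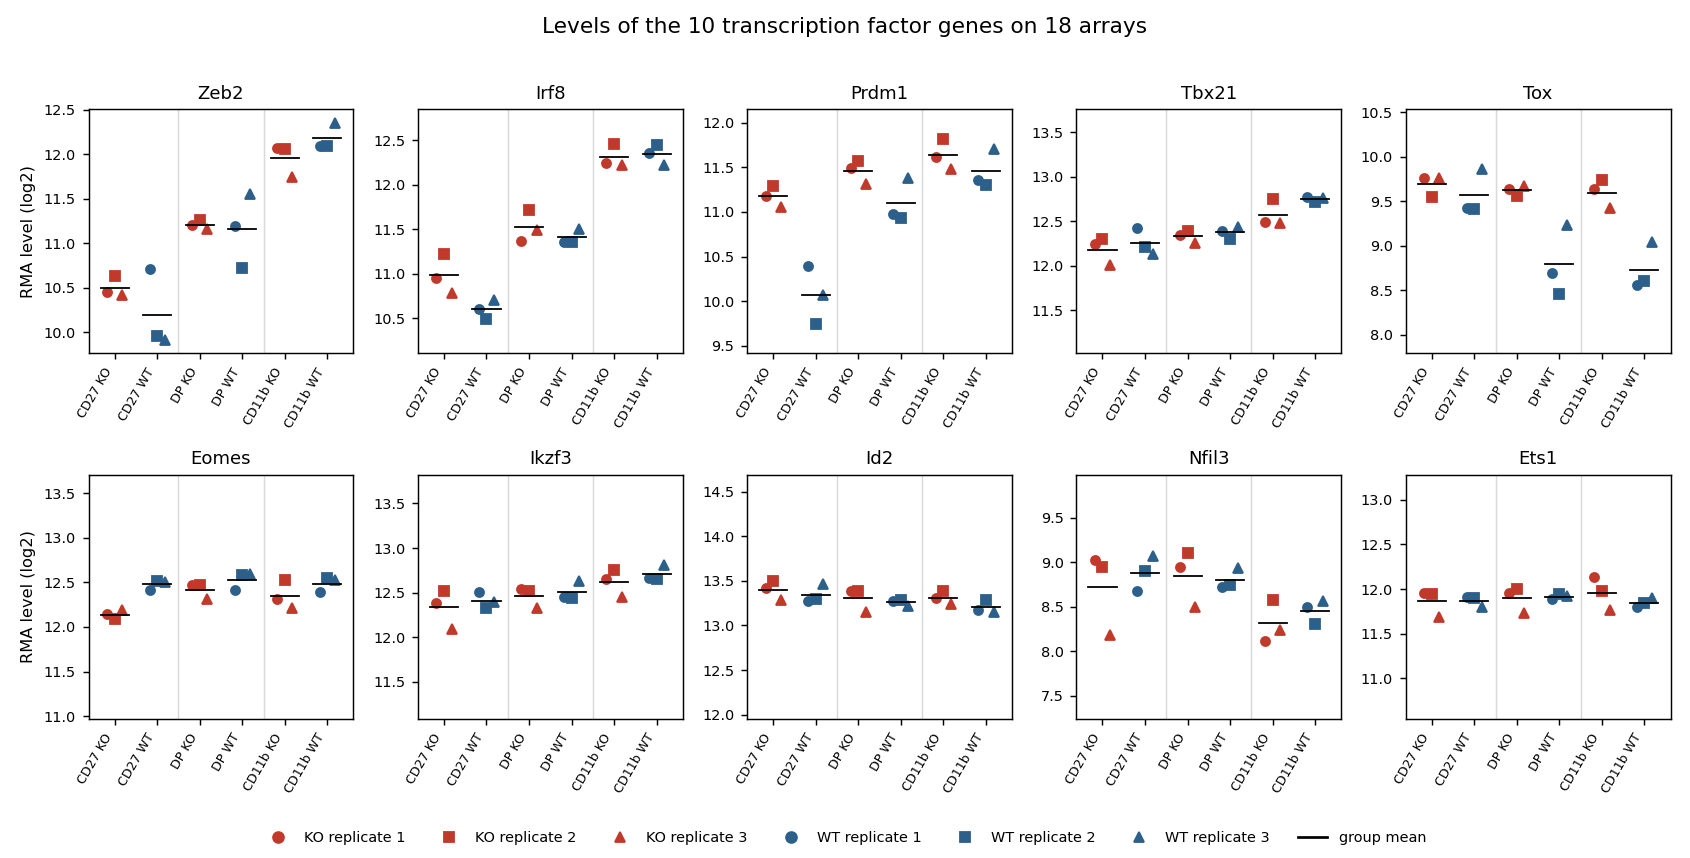
RMA level (log2, y axis, the same span in every panel) of the 10 genes on each array, with KO (red) left of WT (blue) in each subset, 1 symbol per replicate number and a black line at the group mean. Zeb2 and Irf8 climb from CD27 to CD11b cells in both genotypes, while KO Prdm1 is already high in CD27 cells and KO Tox stays high in DP and CD11b cells.

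The second question was which of the genes depend on Runx3 in each subset. Prdm1 was higher in KO than in WT CD27 cells, and Tox was higher in KO than in WT CD11b cells. No other gene of the 10 passed in a single subset. In CD27 cells 1 of 10 genes rose and 0 fell, where 0.907% of probe sets passed (0.257% higher and 0.650% lower). In DP cells 0 of 10 passed by limma, where 0.395% of probe sets passed (0.169% higher and 0.226% lower). An unadjusted p under 0.05 was reached there by 2 of the 10, beside 3412 of all 35399 probe sets. In CD11b cells 1 rose and 0 fell, where 1.29% of probe sets passed (0.455% higher and 0.836% lower). The median KO-WT difference of the 10 genes was 0.02, 0.05 and -0.06 log2 in CD27, DP and CD11b cells, beside -0.01, -0.02 and -0.01 over all probe sets. The comparisons between genotypes and between subsets share arrays and are not independent.

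Prdm1 encodes Blimp-1, a repressor that marks late NK cells. It read 11.18, 11.29 and 11.05 in KO CD27 cells, against 10.40, 9.75 and 10.07 in WT CD27 cells. The groups did not overlap, and the lowest KO array was above the highest WT array by more than the spread of the KO arrays. Prdm1 was 2.15-fold higher in KO (1.68 to 2.75, limma adjusted p = 0.00527). Arrays of KO CD27 cells lay among those of WT DP cells, whose mean was 11.10 beside 11.17 in KO CD27 cells.

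In DP cells Prdm1 read 11.49, 11.57 and 11.31 in KO, against 10.98, 10.93 and 11.38 in WT. The WT array of replicate 3 overlapped the KO arrays, and the 1.29-fold difference did not pass (interval 1.01 to 1.64, adjusted p = 0.507). In CD11b cells it read 11.61, 11.82 and 11.48 in KO, against 11.36, 11.30 and 11.70 in WT, with groups that overlapped and a 1.13-fold difference (0.89 to 1.45, adjusted p = 0.732). The difference in CD27 cells was 1.16 log2 without all arrays of KO replicate 3 (adjusted p = 0.0153), the replicate with the highest levels of dividing-cell genes. It ended as a call when only the 6 arrays of CD27 cells were fitted (adjusted p = 0.129), the highest over all alternatives. The mean of 9 genes of dividing cells was higher on every KO array than on any WT array, although not every single gene was. The part of these genes in the Prdm1 difference was not tested.

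Tox was close to equal in CD27 cells and apart later. In CD27 cells it read 9.76, 9.55 and 9.76 in KO, against 9.42, 9.41 and 9.87 in WT, a 1.09-fold difference with overlap (0.83 to 1.43, limma adjusted p = 0.899). In DP cells it read 9.64, 9.56 and 9.67 in KO, against 8.69, 8.46 and 9.24 in WT. All KO arrays lay above all WT arrays there, 1.77-fold on average (1.35 to 2.33), but the adjusted p was 0.0817.

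In CD11b cells Tox read 9.63, 9.73 and 9.42 in KO, against 8.56, 8.60 and 9.04 in WT. The groups did not overlap, and Tox was 1.82-fold higher in KO (1.39 to 2.39, limma adjusted p = 0.0322). This call ended without any 1 of 5 CD11b arrays, KO replicates 1, 2 and 3 (adjusted p = 0.116, 0.0581 and 0.0571) and WT replicates 1 and 2 (0.126 and 0.152), without all arrays of KO replicate 3 (0.0659) and with only the compared groups fitted (0.153), while the difference stayed between 0.78 and 1.02 log2. T cell markers averaged 6.34, 6.49 and 7.11 on KO CD11b arrays, against 6.38, 6.22 and 6.09 on WT CD11b arrays. On the array of KO replicate 3, Cd4 (7.23), Cd8a (6.92) and Cd8b1 (6.34) lay above KO replicates 1 and 2. Its Cd3g (9.77) lay below theirs, and its Cd3d and Cd3e lay between theirs. The part of these markers in the Tox difference was not tested. Because the arrays measured sorted populations in bulk, more Tox mRNA per cell and a larger share of cells with Tox cannot be told apart, here as elsewhere.

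Eomes was the 1 gene of the 10 that fell in KO when the subsets were averaged. In CD27 cells it read 12.14, 12.09 and 12.19 in KO, against 12.42, 12.52 and 12.50 in WT, without overlap. The difference of -0.34 log2 (interval -0.52 to -0.16) did not pass in CD27 cells (limma adjusted p = 0.0776). In DP cells KO arrays read 12.47, 12.47 and 12.31 and WT arrays 12.41, 12.58 and 12.59, and in CD11b cells KO arrays read 12.31, 12.53 and 12.22 and WT arrays 12.39, 12.54 and 12.53. Groups overlapped in DP and CD11b cells, where the differences were -0.11 and -0.13 log2.

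Averaged over the subsets, Prdm1 (1.46-fold, limma adjusted p = 0.00305) and Tox (1.52-fold, adjusted p = 0.00311) rose in KO and Eomes fell by 0.19 on the log2 scale (adjusted p = 0.0223). These are 3 of 10 genes, where 8.08% of probe sets passed (2.80% higher and 5.28% lower). None of the 3 passed when the arrays of a sample were averaged before 3 samples were compared with 3 (adjusted p = 0.191, 0.229 and 0.295). With same-numbered arrays as a random block Prdm1 and Tox still passed (adjusted p = 0.00979 and 0.0074) and Eomes did not (0.0665). Eomes also failed without DP WT replicate 3 (adjusted p = 0.0510) and without all arrays of KO replicate 3 (0.0728).

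Irf8, Zeb2 and Tbx21 did not pass between genotypes in any subset. Irf8 read 10.96, 11.22 and 10.78 in KO CD27 cells, against 10.60, 10.50 and 10.71 in WT CD27 cells, 1.30-fold apart without overlap (limma adjusted p = 0.166). In KO CD11b cells it read 12.25, 12.46 and 12.22, within the range of WT CD11b cells or just beyond it. The KO replicate 3 array, at 12.22, carried dendritic cell and neutrophil markers, and their part in the Irf8 values was not tested. Zeb2 had a mean of 10.50 ± 0.11 for KO CD27 cells, against 10.20 ± 0.45 for WT (SD, n = 3 each, here and below). The DP means were 11.21 ± 0.05 for KO and 11.16 ± 0.42 for WT, and the CD11b means 11.95 ± 0.19 for KO and 12.18 ± 0.15 for WT. Its interval in CD11b cells, from -0.67 to 0.22 log2, holds both no difference and a sizeable loss. That difference did not pass (limma adjusted p = 0.743), though KO and WT arrays did not overlap, with KO up to 12.07 and WT from 12.09. Tbx21 had a mean of 12.18 ± 0.15 for KO CD27 cells, against 12.26 ± 0.15 for WT. Its DP means were 12.33 ± 0.06 for KO and 12.38 ± 0.07 for WT, and its CD11b means 12.57 ± 0.16 for KO and 12.75 ± 0.03 for WT. The largest Tbx21 difference, in CD11b cells, was -0.17 log2 (interval -0.38 to 0.03, adjusted p = 0.477). Id2, Nfil3, Ikzf3 and Ets1 differed by -0.16 to 0.11 log2 between genotypes in the 3 subsets, with overlapping arrays each time. Among KO arrays, replicate 3 was the lowest of its trio in every subset for Ikzf3, Id2 and Ets1, and for Tbx21, Zeb2 and Prdm1 as well. Nfil3 spread most, at 9.02, 8.95 and 8.19 in KO CD27 cells, where replicate 3 was again the lowest.

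**Figure D3:**
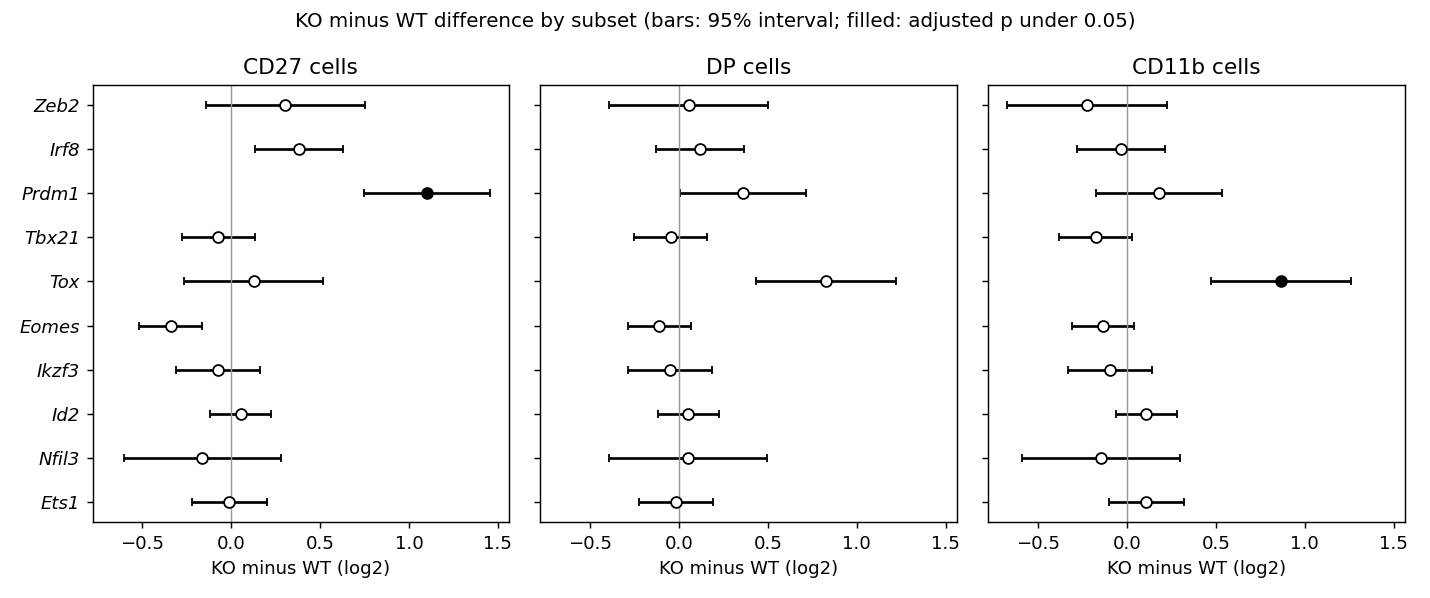
KO minus WT difference (log2, x axis) of the 10 genes in CD27, DP and CD11b cells, with 95% intervals from the moderated standard error and filled points where the adjusted p is under 0.05. Prdm1 stands out in CD27 cells at 1.10 and Tox in DP and CD11b cells at 0.83 and 0.87, of which the DP value did not pass.

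The third question was whether the genes still change with maturation in KO cells. Zeb2 and Irf8 rose between KO CD27 and KO CD11b cells, as in WT. They were the 2 of 10 genes that passed in KO, with 8 not passing, where 2.07% of probe sets passed (1.25% higher and 0.828% lower). Zeb2 read 10.45, 10.63 and 10.42 in CD27, 11.21, 11.26 and 11.16 in DP, and 12.07, 12.06 and 11.74 in CD11b cells of KO mice. It was 2.74-fold higher in CD11b than in CD27 cells (2.01 to 3.73, limma adjusted p = 0.00182). Irf8 averaged 10.99 ± 0.22, 11.52 ± 0.18 and 12.31 ± 0.13 in KO CD27, DP and CD11b cells (SD, n = 3 each), with no overlap between stages. It was 2.50-fold higher in CD11b than in CD27 cells (2.11 to 2.97, adjusted p = 3.84e-05).

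Prdm1 and Tox differed in their KO course. Prdm1 was 1.38-fold higher in KO CD11b than in KO CD27 cells (1.08 to 1.76, limma adjusted p = 0.210), and KO CD11b arrays lay above KO CD27 arrays. Tox averaged 9.69 ± 0.12 in CD27, 9.62 ± 0.05 in DP and 9.60 ± 0.16 in CD11b cells of KO mice, a change of -0.09 log2 with an interval from -0.49 to 0.30. In order of their means, the 3 KO groups and the WT CD27 group overlapped for Tox, and a gap of 0.77 separated them from WT DP cells. Tbx21 was 1.31-fold higher in KO CD11b than in KO CD27 cells without passing (adjusted p = 0.0534).

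Array numbers paired the subsets within KO, although correlations of same-numbered and other arrays overlapped. The block changed the count of 2 for KO CD11b against KO CD27 cells. With the number as a fixed block 5 genes passed, the added ones being Tbx21 (limma adjusted p = 0.0119), Ikzf3 (0.0297) and Prdm1 (0.0469). With it as a random block 3 passed, Tbx21 being added, while Ikzf3 (adjusted p = 0.0973) and Prdm1 (0.0858) did not pass. The share of all probe sets that passed with a block was not counted. A gain of these genes and a general gain in calls therefore cannot be told apart. Of the single steps in KO, 0 of 10 genes passed between DP and CD27 cells by limma without a block, where 0.0198% of probe sets passed. An unadjusted p under 0.05 was reached there by 3 of the 10, beside 2004 of all 35399 probe sets. With the fixed block 1 gene passed at this step (Irf8, limma adjusted p = 0.0336, or 0.0535 with the random block). Between KO CD11b and DP cells Irf8 alone passed (1.72-fold higher, adjusted p = 0.00696, or 0.0516 without DP KO replicate 1), where 0.514% of probe sets passed. Between WT stages 2 of 10 passed at each step, beside 0.557% of probe sets for DP against CD27 and 0.525% for CD11b against DP.

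The difference between the genotypes in the CD27 to CD11b change was tested as such. It was -0.92 log2 for Prdm1 (interval -1.42 to -0.42), 0.74 for Tox (0.18 to 1.29), -0.41 for Irf8 (-0.76 to -0.06) and -0.53 for Zeb2 (-1.16 to 0.11). None passed over all probe sets (limma adjusted p = 0.395, 0.682, 0.764 and 0.914). Of the 10 genes 3 had an unadjusted p under 0.05, beside 2132 of all 35399 probe sets. After adjustment 0.0367% of probe sets passed. The F test of genotype by subset called 0 of the 10 genes and 0.0113% of probe sets. Its unadjusted p was under 0.05 for 2 of the 10 and for 1478 of all 35399 probe sets. A different course of Prdm1 and Tox in KO is thus seen in the values but not called.

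**Figure D4:**
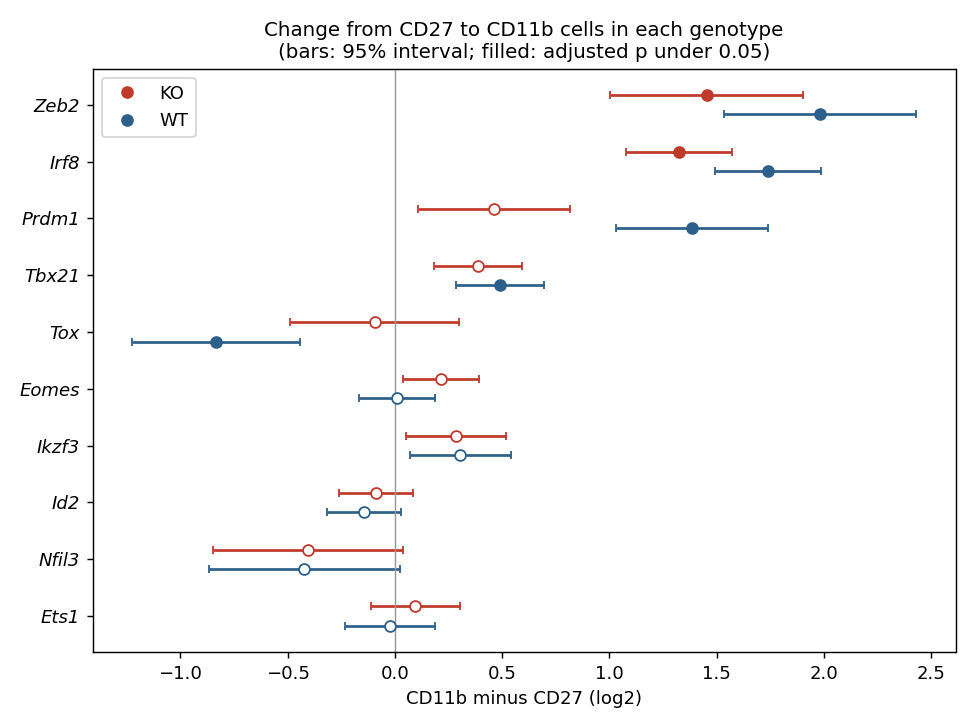
Change from CD27 to CD11b cells (CD11b minus CD27, log2, x axis) of the 10 genes, with KO (red) above WT (blue), 95% intervals and filled points where the adjusted p is under 0.05. Prdm1 changed by 0.46 in KO and 1.38 in WT and Tox by -0.09 in KO and -0.83 in WT, while Zeb2 and Irf8 passed in both genotypes.

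Relatives of the 10 genes were compared to see how far whole families moved. Of 21 relatives, all measured, 2 fell and 0 rose in WT CD11b against WT CD27 cells, beside 2.13% and 2.88% of all probe sets. They were Zeb1, the paralogue of Zeb2 (1.90-fold lower, limma adjusted p = 0.000898), and the Ikaros-family gene Ikzf2, or Helios (3.43-fold lower, adjusted p = 0.000132). Both were lower in KO CD11b than in KO CD27 cells as well, Zeb1 by 1.99-fold (adjusted p = 0.00114) and Ikzf2 by 2.12-fold (adjusted p = 0.0114). Zeb2 and Zeb1, and Ikzf3 and Ikzf2, thus had opposite signs, of which the Ikzf3 change did not pass. The median change of the relatives was -0.0023 log2 in KO and -0.0044 log2 in WT, beside 0.02 over all probe sets in each. Between genotypes 1 of 21 relatives passed in CD27 cells, the ETS gene Ets2 (2.16-fold higher in KO, adjusted p = 0.0447), and 0 in DP and CD11b cells. The shares of all probe sets that passed were 0.907%, 0.395% and 1.29% in CD27, DP and CD11b cells. Averaged over the subsets, 1 of 21 relatives was higher in KO and 3 were lower, beside 2.80% and 5.28% of all probe sets. Ets2 was higher (limma adjusted p = 0.00224), and Prdm2 (0.000321), Zeb1 (0.0125) and Elf1 (0.0129) were lower. Sample means were not compared for these genes.

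Other transcription factors of NK cells, 19 of 21 measured, changed in both directions with WT maturation, 3 higher and 4 lower. Among all probe sets 2.88% passed as higher and 2.13% as lower. Klf2, a regulator of lymphocyte traffic, was 1.80-fold higher in WT CD11b than in WT CD27 cells (limma adjusted p = 0.00499) and Zbtb16, or PLZF, 1.86-fold higher (adjusted p = 0.00277). Rora, a nuclear receptor of innate lymphoid cells, was 2.25-fold lower (adjusted p = 0.00381) and Myb 3.78-fold lower (adjusted p = 0.0257). Between genotypes 2 of 19 fell in KO CD27 cells, where 0.650% of all probe sets passed as lower. They were Runx3, the targeted gene, and the E-protein gene Tcf12, 1.69-fold lower (adjusted p = 0.000267). The median KO-WT difference of the list was -0.16 log2 in CD27, -0.14 in DP and -0.15 in CD11b cells. Averaged over the subsets, 1 of 19 was higher in KO and 5 were lower by limma, beside 2.80% and 5.28% of all probe sets. Runx1 was the higher one, and Runx3, Tcf12, Foxo1, Stat4 and Bach2 were lower. Sample means were not compared for these genes either.

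Genes known to be raised by T-bet, Zeb2 or Blimp-1 or along with them were followed next. The list was chosen with earlier results of these data known, so its rise is no measure of the activity of these factors. Between CD27 and CD11b cells 5 of the 9 measured genes of 10 rose in KO and 9 of 9 rose in WT, with median changes of 0.998 log2 in KO and 1.72 log2 in WT. Among all probe sets 1.25% passed as higher in KO and 2.88% in WT. Itgam is on this list and encodes CD11b, so the gate set its change. The chemokine receptor gene Cx3cr1 rose by 2.30 log2 in KO (limma adjusted p = 0.0391) and by 4.17 log2 in WT (adjusted p = 0.000342), and the mast cell protease gene Cma1 by 1.44 log2 in KO (adjusted p = 0.00374) and 2.64 log2 in WT (adjusted p = 1.22e-05). Between genotypes 3 of the 9 genes were higher in KO CD27 cells, Gzmb, Cma1 and Gzma, and 0 passed in DP and CD11b cells. The share of all probe sets that passed as higher in KO CD27 cells was 0.257%.

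Gzmb, which encodes granzyme B, a protease of the cytotoxic granule, read 12.49, 12.28 and 12.35 in KO CD27 cells, against 10.86, 9.68 and 10.43 in WT CD27 cells. The groups did not overlap, as for Prdm1 in the same arrays. In CD11b cells it read 12.67, 12.86 and 12.60 in KO, against 12.74, 12.51 and 12.59 in WT, with overlap. Gzmb changed by 0.33 log2 between KO CD27 and KO CD11b cells (limma adjusted p = 0.563) and rose by 2.29 log2 in WT (adjusted p = 2.08e-05). The difference between these changes passed, at -1.96 log2 (interval -2.61 to -1.31, adjusted p = 0.0426), and lost its call under 17 of 27 alternatives, with values of -2.23 to -1.64 log2.

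Of the genes known to be lowered in maturing NK cells, 9 of 11 were measured. Of these 6 fell in KO and 8 in WT between CD27 and CD11b cells, with medians of -2.14 and -3.47 log2. Among all probe sets 0.828% passed as lower in KO and 2.13% in WT. Cd27, on this list, was part of the gate. The interleukin-7 receptor gene Il7r was 18.2-fold lower in KO CD11b than in KO CD27 cells (limma adjusted p = 0.000238) and 47.9-fold lower in WT (adjusted p = 7.52e-06). Between genotypes 0 of 9 passed in CD27 cells, 1 in DP cells and 2 in CD11b cells, beside 0.907%, 0.395% and 1.29% of all probe sets. The phosphatase gene Inpp4b read 9.20, 8.95 and 8.52 in KO DP cells, against 7.66, 7.60 and 7.23 in WT DP cells, and was 2.64-fold higher in KO (adjusted p = 0.0102). In CD11b cells it read 8.61, 8.55 and 8.08 in KO, against 7.08, 7.05 and 6.71 in WT, 2.76-fold higher in KO (adjusted p = 0.00325). KO and WT arrays did not overlap in either stage. The chemokine receptor gene Cxcr4 was 4.27-fold higher in KO than in WT CD11b cells (adjusted p = 0.0391).

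Among the 10 genes, Zeb2 and Irf8 followed each other most closely over the 18 arrays (Pearson's r = 0.94), then Tbx21 and Ikzf3 (0.90) and Tbx21 and Zeb2 (0.89). Over the array, the genes most like Tbx21 were S1pr5 (0.95), Fbxo31 (0.94) and Fig4 (0.93). Prdm1 was followed most closely by Nuak2 (0.95), Cmklr1 (0.95) and Gzmb (0.95). The profiles closest to Zeb2 were those of Sun1 (0.97), Enc1 (0.96) and Fig4 (0.95), and those closest to Irf8 were Slc39a13 (0.96), Zmynd8 (0.96) and Coch (0.96). Tox was followed by Man2a2 (0.92), Acvr1b (0.90) and Garnl3 (0.87), and Eomes by Bag3 (0.86), Klra8 (0.85) and Amigo1 (0.84). These values describe 18 arrays that share 6 groups, among genes with an SD of at least 0.3 log2.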

How the data were processed

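The deposited values, 1 column for each Affymetrix array, are on a log2 scale and came from RMA as run by the authors, with Partek as the other tool named, per the submitters' processing notes, which give no versions; the log2 scale was judged from the values, which run from 3.91 to 14.96. Of 35399 probe sets 21789 have 1 gene symbol, 1621 several and 11989 are not listed in the platform annotation. A gene was represented by its single-symbol probe set with the highest mean.

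The 6 group means were estimated together from all 18 arrays (limma 3.58.1, R 4.3.3), leaving 12 residual and 2.18 prior degrees of freedom, and contrasts were tested with eBayes. P-values are two-sided and adjusted over all probe sets, and intervals are 95% intervals of the moderated standard error. The number of arrays limits the precision, and the median SD within groups was 0.11 log2. The smallest p that an exact permutation test of 3 KO and 3 WT arrays allows is 0.1, so none was made. Named were all 10 genes, up to 4 list members with the largest called changes and the 3 most alike genes of each gene called. The 10 genes and the lists were chosen with earlier results of these data known. Zeb2 and Prdm1 were counted with the 10 genes and not with the list of raised genes. Same-numbered arrays paired within KO (correlation of deviations from group means 0.21 to 0.64) and, in WT, between CD11b and either other subset (0.22 to 0.46), but not between DP and CD27 (-0.0094 to 0.44). Arrays of different number gave -0.61 to 0.29 within KO and -0.40 to 0.27 within WT. Within KO these ranges overlapped, so the pairing there was not complete. The fit was tested on simulated data. Alternatives were cyclic loess, only probe sets with a mean above 6.33, the median, a trended and robust eBayes prior (statmod 1.5.0), the compared groups alone, array weights, replicate blocks, Xist as a covariate, KO replicate 3 left out, sample means and each array left out.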

Additional observations from a re-analysis of the deposited data

Results flagged for a closer look

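The change of Gzmb, a gene known to rise with Blimp-1 and T-bet in maturing NK cells, differed between the genotypes by a test of the difference itself. Gzmb was 1.26-fold higher in KO CD11b than in KO CD27 cells, against 4.89-fold in WT, and the KO minus WT difference of these changes was -1.96 log2 (limma adjusted p = 0.0426 over all probe sets). In CD27 cells all 3 KO arrays lay above all 3 WT arrays, and in CD11b cells the groups overlapped. The call ended under 17 of 27 alternatives, 15 of them with 1 array left out, and the highest adjusted p was 0.185, with only the compared groups fitted. The F test over both interaction contrasts did not pass for Gzmb (adjusted p = 0.142). No gene of the 10 transcription factors passed either test, and groups of 3 arrays were too small for a search for single outlying arrays.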

How the results depend on the processing

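Results were 12 counts of the 10 genes passing, with 316 further values under alternatives, and 41 gene changes with 1080. The share of all probe sets that passed was not counted under the alternatives. The 41 changes were those called or with an unadjusted p under 0.05, and the Gzmb difference. No such change turned its direction under an alternative run, and 57 of the values lost and 37 gained a call. Several alternatives altered only the spread and not the estimate. The changes were also kept for a small p, so the lack of reversals is no measure of stability. With only the compared groups fitted, 0 genes passed for KO against WT in CD27 and in CD11b cells, for DP against CD27 in WT and for CD11b against DP in KO, and 1 for CD11b against DP in WT. With array weights 3 passed for KO against WT in CD27 cells (Eomes, Prdm1 and Irf8), 2 for DP against CD27 in KO and 4 for CD11b against CD27 in KO. Cyclic loess gave 1 for KO against WT in DP cells, Tox (adjusted p = 0.0410). Without all arrays of KO replicate 3, 0 passed for KO against WT in CD11b cells and 1 for CD11b against DP in WT, and with sample means 0 passed for the average over subsets. With the replicate block, random, 1 passed for KO against WT in DP cells (Tox) and 4 for DP against CD27 in WT (Zeb2, Prdm1, Irf8 and Tox); with the replicate block, fixed, these counts were 1 and 4 too, and 1 passed for DP against CD27 and 5 for CD11b against CD27 in KO. The numbers did not pair DP and CD27 arrays of WT, so the block values there are a description only. For KO against WT the fixed block joined KO and WT arrays of the same number, a pairing that the labels do not give. Such arrays were not paired by their deviations from group means (correlations -0.073 to 0.34, median 0.021). The fixed-block values for KO against WT are thus a description only. The random block gave 3 for CD11b against CD27 and 0 for DP against CD27 in KO, and either block added Ikzf3 to CD11b against CD27 and Tbx21 to CD11b against DP in WT. The block ended 1 call, that of Eomes in the average (random, adjusted p = 0.0665). With 1 array left out, counts ran from 1 to 2 for KO against WT in CD27, 0 to 1 in DP, 0 to 1 in CD11b and 2 to 3 in the average; from 1 to 3 for DP against CD27, 1 to 2 for CD11b against DP and 4 to 5 for CD11b against CD27 in WT; and from 0 to 0, 0 to 1 and 2 to 3 for the same steps in KO. The interaction counts stayed at 0. The difference of Gzmb between the genotypes in the change from CD27 to CD11b cells lost its call without KO replicate 3 (-1.91 log2, adjusted p = 0.182), with only the compared groups fitted (adjusted p = 0.185) and in 15 of 18 fits with 1 array left out. The Zeb2 call for CD11b against DP in WT ended in 14 of 18 such fits (adjusted p up to 0.231). The cause of these changes was not tested, apart from fewer arrays. Xist as a covariate, run for KO against WT and for the difference of the CD11b-CD27 change, ended no call there. Each gene had 1 probe set, so no other probe set could be tried.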
